A study of Mus musculus with 12 samples.

Results

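Aspartame was compared with no aspartame over both backgrounds of a diet study in mouse visceral fat. The 6 arrays of the ASP+TFA and ASP+MSG+TFA diets, of 12 arrays in all, were set against the 6 arrays of the TFA and MSG+TFA diets, with monosodium glutamate (MSG) present or absent as a term. Arrays were placed in the groups by the diet label alone, and the comparison was picked with earlier results of these data known. All mice were males of the inbred strain C57Bl/6J, 20 weeks old. Trans fat (TFA) was common to the 4 diets, controls included, with shortening at 20% w/w and trans fat at 8.68% w/w. ASP+TFA mice drank aspartame at 0.25 g/L and ASP+MSG+TFA mice drank aspartame at 0.25 g/L with MSG at 0.75 g/L. MSG+TFA mice drank MSG at 0.75 g/L, and TFA mice drank neither. Exposure began before birth, since mothers started the diet when 6 weeks old and mated 3 weeks later, and weaning was at 4 weeks. Each diet had 15 mice and 3 arrays, and each array held RNA pooled from several mice. The tissue joined epididymal pads with omental and mesenteric fat and fat near the reproductive organs.

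Aspartame is the methyl ester of a dipeptide of aspartate and phenylalanine, and digestion releases both amino acids and methanol. Visceral fat stores triglyceride in adipocytes, which sit in a matrix with fibroblasts, blood vessels, macrophages and a mesothelial lining. In obesity the tissue is known for macrophage entry and matrix remodelling. Because whole tissue was measured, more cells of a type and more RNA per cell cannot be told apart in any value below.

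The arrays differed in ways that touch the comparison. Smell and pheromone receptor genes, which fat has little use for, had a median of 5.44 to 5.67 on the log2 intensity scale on the 6 aspartame arrays and on replicate 3 of TFA and MSG+TFA, against 6.40 to 6.76 on replicates 1 and 2 of TFA and MSG+TFA. These last 4 arrays are called the raised arrays. No aspartame array was raised, so raised signal and the absence of aspartame overlap in part, and the differences of bright genes are also given against the 2 replicate 3 arrays alone. Adipocyte markers were high on every array, with Adipoq (adiponectin) at 13.06 to 13.42 with aspartame and 12.89 to 13.36 without. Crisp1, of the epididymis, lay at 5.92 and 6.50 on replicate 3 of ASP+TFA and of ASP+MSG+TFA and at 5.60 and 5.75 on replicate 2 of TFA and of MSG+TFA. It lay above 12 on the other 8 arrays. Pancreas genes were high on TFA replicate 2 alone, with a median of 10.58.

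Most genes that passed the test were dim. A gene counted as called at an adjusted p under 0.05 in limma, a linear model over all genes, with at least a 1.4-fold difference. Of 20358 genes, 2759 were called (13.6%), 426 higher and 2333 lower with aspartame. Of the 2333, 2262 had a mean at or below 7.5, and 697 of the 1144 receptor genes measured were among the 2333. Among the 3926 bright genes, those with a mean log2 above 9, 30 were called (0.764%), 26 higher (0.662%) and 4 lower (0.102%). Against only the replicate 3 arrays of TFA and MSG+TFA, limma called 0 genes at any level, with 1227 of 20358 at an unadjusted p under 0.05. Among the bright genes 191 passed that limit, where 196.3 are expected by chance. The rest of the results are about bright genes.

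**Figure D1:**
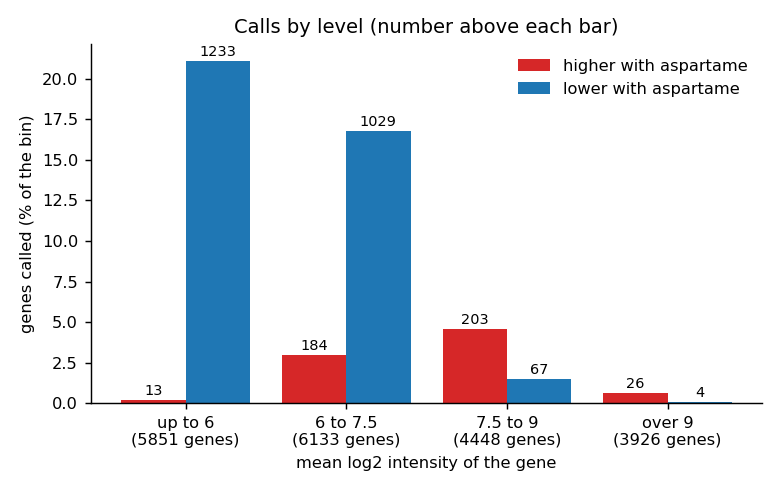
Genes called higher (red) or lower (blue) with aspartame, as a percentage of all genes in 4 bins of mean log2 intensity, with the number called above each bar. The lower calls, 1233 and 1029, sit in the 2 dimmest bins, while 26 higher and 4 lower calls lie among bright genes.

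The 30 bright genes called are described one by one and grouped by known role only for reading, with no test of any role. All 30 kept their direction against the replicate 3 arrays, as genes chosen with these arrays in the fit tend to. Of the 30, 11 kept at least 50% of the difference and 3 (Litaf, Dusp6 and Capg) kept 1.4-fold. An unadjusted limma p under 0.05 was reached by 9 of the 30, beside 191 of all 3926 bright genes. The adjusted p against replicate 3 was 0.805 or higher for every bright gene. The share of the difference that was kept ran from 13% to 106%, with a median of 39.3%. The aspartame arrays overlapped none of the 6 other arrays for 6 of the 30 (Litaf, Pdpn, Lrch4, Ugt1a6a, Sec24d and Ercc3). Over all bright genes they lay above all 6 others for 51 (1.3%) and below them for 4 (0.102%). They lay apart from both replicate 3 arrays for 7 of the 30 and for 394 of all bright genes (10.0%). The part of the raised arrays in the remaining difference was not tested. With raised arrays as a term, with bright genes alone in both the fit and the adjustment, and after quantile normalization 0 bright genes were called. The same held without any of 10 of the 12 arrays in turn, the exceptions being replicate 3 of TFA and of MSG+TFA. With the brightest probe set of each gene in place of the median, 12 bright genes were called higher and 26 lower, 4 of the 30 among them. Of the rest of the 30, 23 kept their direction without a call and 3 turned. Of the 30 genes, 28 had a mean under 10.

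**Figure D2:**
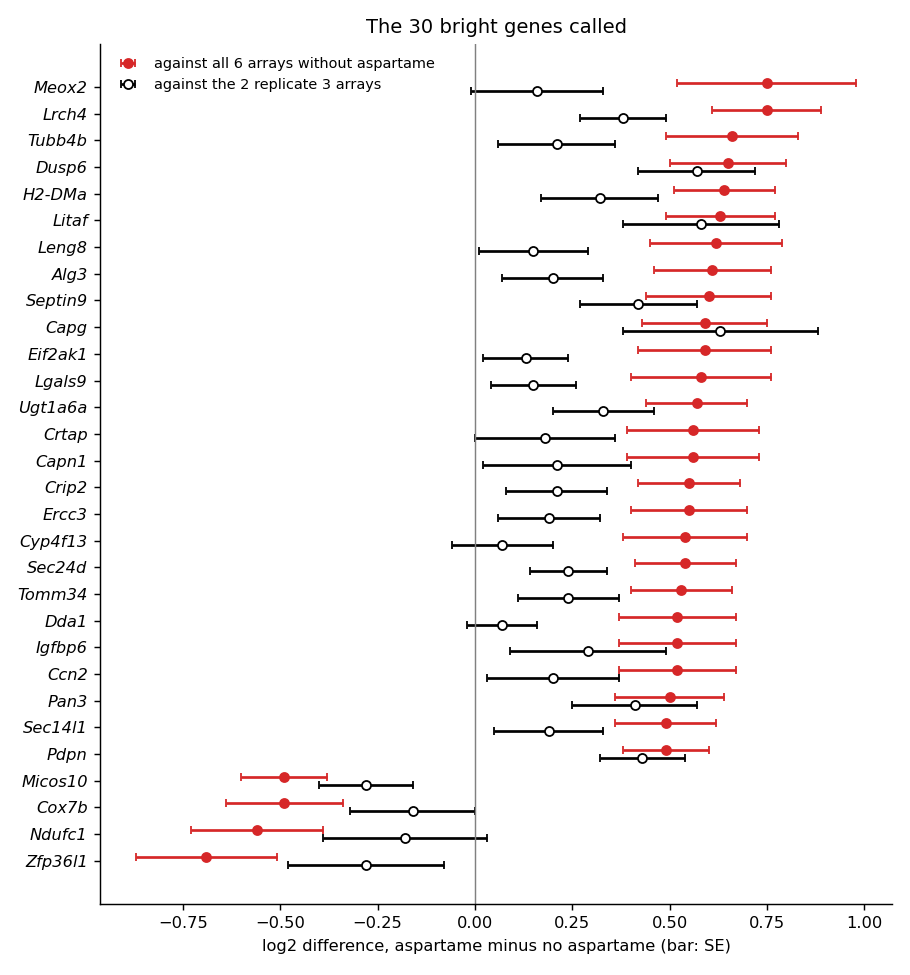
Log2 difference with aspartame (points, bars give the SE) for the 30 called bright genes, against all 6 arrays without aspartame (red) and against the 2 replicate 3 arrays (open). Every open point lies on the same side of 0 as its red point, as genes chosen with these arrays in the fit tend to. Litaf, Dusp6, Capg and Pdpn keep most of their difference.

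Litaf and Dusp6 were the called genes that kept a 1.4-fold difference with no overlap of either replicate 3 array, and so the bases before their starts are shown. Both are from RefSeq on build GRCm38.p6, 250 bases on the gene's strand, 5′ to 3′. Capitals mark the GC box, GGGCGG, or the CAAT box, spelled CCAAT, on either strand. Litaf lies on the minus strand of chromosome 16 and Dusp6 on the plus strand of chromosome 10.
Litaf, chr16:10993122-10993371: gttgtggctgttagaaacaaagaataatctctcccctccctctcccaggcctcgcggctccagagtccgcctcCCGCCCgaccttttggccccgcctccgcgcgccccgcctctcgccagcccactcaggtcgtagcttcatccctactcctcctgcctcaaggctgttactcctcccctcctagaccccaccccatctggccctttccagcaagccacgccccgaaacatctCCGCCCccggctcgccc
Dusp6, chr10:99262981-99263230: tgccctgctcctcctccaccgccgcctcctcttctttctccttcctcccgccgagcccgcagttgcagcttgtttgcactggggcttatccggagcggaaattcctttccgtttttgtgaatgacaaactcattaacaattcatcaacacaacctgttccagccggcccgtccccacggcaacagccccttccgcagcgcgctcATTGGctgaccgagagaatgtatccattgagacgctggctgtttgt
The Litaf window held 2 GC boxes and no CAAT box, and the Dusp6 window held 1 CAAT box and no GC box. The marked motifs did not overlap each other. Over all 32851 windows of this length, 32.7% held the GC box and 33.8% the CAAT box, so these matches are common. The TATA box, searched as the letters TATAAA on either strand, was in neither window and in 12.4% of all.

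Litaf, a protein of late endosomes and lysosomes that is induced by bacterial lipopolysaccharide, rose with aspartame. Its log2 values were 9.49 at the lowest, 9.72 at the median and 10.19 at the highest on aspartame arrays, against 8.94, 9.11 and 9.45 without. The groups did not overlap, and the highest values were those of ASP+TFA replicates 1 and 2. The difference was 0.63 ± 0.14 (SE), 1.54-fold (limma adjusted p = 0.0335), and 0.58 ± 0.20 against the replicate 3 arrays.

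Dusp6, a phosphatase that switches off the kinase ERK, rose by 0.65 ± 0.15 (SE), 1.57-fold (limma adjusted p = 0.0335). It had 9.35, 9.48 and 9.77 with aspartame (lowest, median and highest) and 8.41, 8.89 and 9.37 without. Only MSG+TFA replicate 1 reached into the aspartame range. Against the replicate 3 arrays, at 8.87 and 9.07, the difference was 0.57 ± 0.15 (SE).

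Pdpn, podoplanin of lymphatic vessels, fibroblasts and mesothelium, rose likewise. Its values were 9.22, 9.41 and 9.55 with aspartame against 8.65, 8.86 and 9.18 without, with no overlap. All 9 of its probe sets were higher with aspartame. The difference was 0.49 ± 0.11 (SE; limma adjusted p = 0.0335), and 0.43 ± 0.11 against the replicate 3 arrays.

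Lrch4, a leucine-rich repeat protein, had a difference of 0.75 ± 0.14 (SE), 1.68-fold (limma adjusted p = 0.0335). It lay at 9.41, 9.70 and 9.80 with aspartame and at 8.59, 8.78 and 9.30 without. The groups did not overlap, but the replicate 3 arrays, at 9.30 and 9.20, were the highest of those without aspartame, and against them the difference was 0.38 ± 0.11 (SE).

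**Figure D3:**
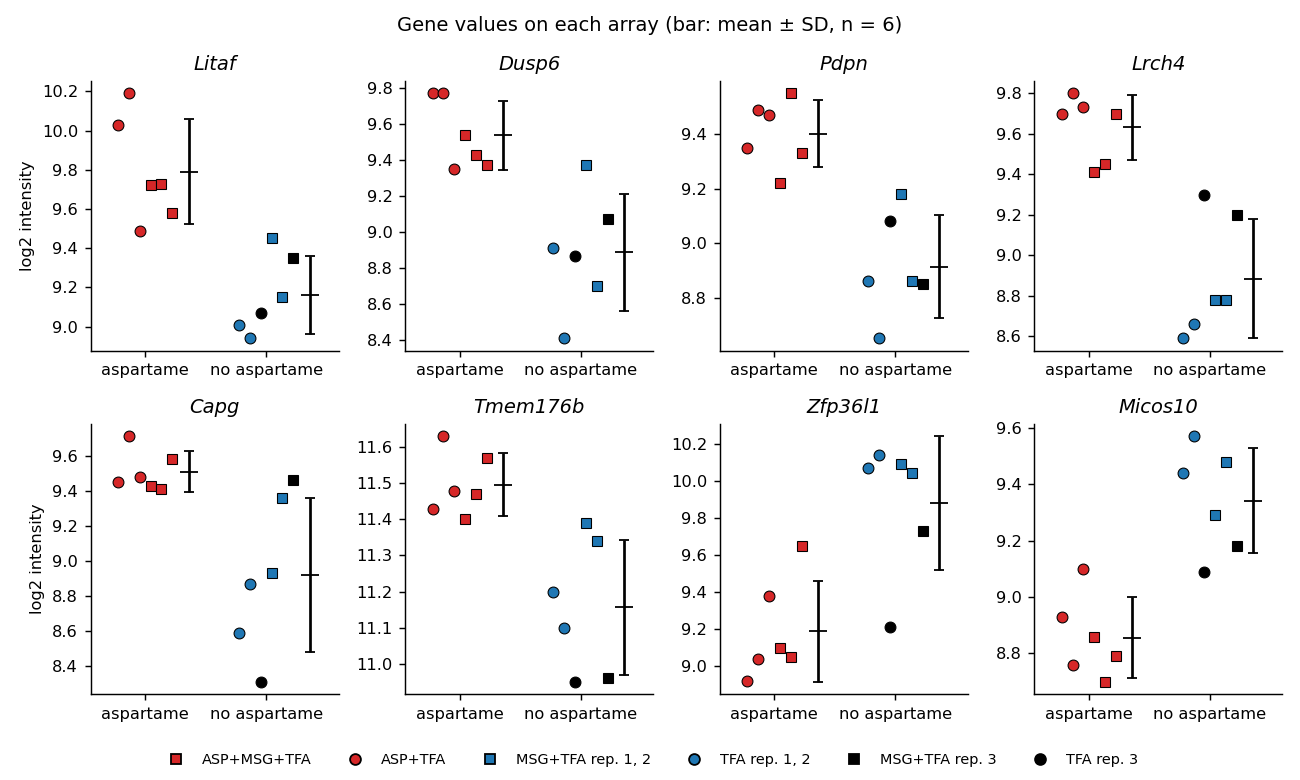
Log2 intensity of 8 genes on each array, aspartame (red) at the left and no aspartame (blue, with replicate 3 in black) at the right of each panel; squares are arrays with MSG, and bars give the mean ± SD of 6 arrays. Litaf, Pdpn, Lrch4 and Tmem176b show no overlap, while for Capg the MSG+TFA replicate 3 array lies among the aspartame arrays.

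Capg, which caps actin filaments and is abundant in macrophages, had 9.41, 9.47 and 9.71 with aspartame and 8.31, 8.90 and 9.46 without (difference 0.59 ± 0.16 SE, limma adjusted p = 0.0358). The replicate 3 arrays stood at both ends of the range without aspartame, 8.31 for TFA and 9.46 for MSG+TFA, and against them the difference was 0.63. H2-DMa, a chaperone that helps load peptides onto MHC class II, had 9.32, 9.37 and 9.75 with aspartame and 8.43, 8.78 and 9.50 without, a 1.55-fold difference (limma adjusted p = 0.0335). MSG+TFA replicate 3 again held the 9.50, and against replicate 3 the difference was 0.32. Lgals9, the sugar-binding galectin-9, differed by 0.58 (limma adjusted p = 0.046) and by 0.15 against replicate 3.

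Of the 22 bright matrix genes listed, 1 was called. This was Ccn2, a matrix-associated signalling protein also known as connective tissue growth factor. It had 8.77, 9.37 and 9.65 with aspartame and 8.55, 8.65 and 9.24 without. It rose 1.43-fold (limma adjusted p = 0.0409), with overlap of the groups and a difference of 0.20 against replicate 3. Crtap, which takes part in collagen hydroxylation, rose by 0.56, Igfbp6, which binds insulin-like growth factor 2, by 0.52, and the LIM-domain protein Crip2 by 0.55, with limma adjusted p of 0.0335 to 0.0432. Against replicate 3 these differences were 0.18, 0.29 and 0.21. Meox2, a homeobox factor of mesenchymal tissue, had a difference of 0.75 ± 0.23 (SE; limma adjusted p = 0.0432) and wide, overlapping ranges, 9.36 to 10.50 with aspartame and 8.49 to 10.14 without. Against replicate 3 it was 0.16, and in its brightest probe set 0.11.

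Sec24d, a coat protein of vesicles leaving the endoplasmic reticulum, had 9.19, 9.34 and 9.41 with aspartame and 8.28, 8.91 and 9.18 without, and all 23 of its probe sets were higher with aspartame. Its difference was 0.54 ± 0.13 (SE; limma adjusted p = 0.0335), and 0.24 ± 0.10 against replicate 3. Sec14l1, of a lipid transfer family, rose by 0.49 (0.19 against replicate 3), with all 21 probe sets higher. Septin9, a filament-forming GTP-binding protein, rose by 0.60 (0.42 against replicate 3), the protease Capn1 (calpain-1) by 0.56 and the tubulin Tubb4b by 0.66, the last 2 at 0.21 each against replicate 3. Tubulins are a family of alike sequences, so probes may share signal. Alg3, a mannosyltransferase of N-glycan assembly, rose by 0.61 over the median of its probe sets but was at 0.20 against replicate 3 and at -0.16 in its brightest probe set.

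Pan3, part of a complex that shortens poly(A) tails, had 9.44, 9.71 and 9.94 with aspartame and 8.94, 9.13 and 9.69 without, a difference of 0.50 (limma adjusted p = 0.0364) and of 0.41 against replicate 3. Ercc3, a helicase of transcription and DNA repair, rose by 0.55 with no overlap, at 9.14 to 9.56 with aspartame against 8.28 to 9.13 without, and by 0.19 against replicate 3. Its brightest probe set was at 0.10. Eif2ak1, the haem-regulated kinase of the translation factor eIF2, rose by 0.59, Leng8 by 0.62 and Dda1, of a ubiquitin ligase, by 0.52, and against replicate 3 these were 0.13, 0.15 and 0.07. In the brightest probe set of each gene they were 0.06, 0.06 and 0.08. Zfp36l1, which binds AU-rich messages and speeds their decay, had the largest lower call, with 8.92, 9.08 and 9.65 with aspartame and 9.21, 10.05 and 10.14 without. The difference was -0.69 ± 0.18 (SE; limma adjusted p = 0.034). Only 2 of its 5 probe sets ran in this direction, the brightest was at 0.29, and TFA replicate 3, at 9.21, lay within the aspartame range. Against replicate 3 the difference was -0.28.

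The other lower calls were mitochondrial. Micos10, which shapes the inner membrane's cristae, had 8.70, 8.82 and 9.10 with aspartame and 9.09, 9.37 and 9.57 without, with only TFA replicate 3 inside the aspartame range. Its difference was -0.49 ± 0.11 (SE; limma adjusted p = 0.0335), and -0.28 ± 0.12 against replicate 3. Ndufc1, of respiratory complex I, fell by 0.56 and Cox7b, of complex IV, by 0.49, with limma adjusted p of 0.0475 and 0.0431. On both, ASP+TFA replicate 3 stood apart above the other aspartame arrays, at 11.53 for Ndufc1 (others 10.66 to 10.82) and 12.64 for Cox7b (others 11.96 to 12.20). Against replicate 3 their differences were -0.18 and -0.16. In the brightest probe set of each, Ndufc1 was at 0.02 and Cox7b at -0.05. Tomm34, a cytosolic chaperone of proteins bound for mitochondria, rose by 0.53 (0.24 against replicate 3).

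The enzymes Ugt1a6a and Cyp4f13 rose. Ugt1a6a, which attaches glucuronic acid to phenols, had 9.90, 10.08 and 10.26 with aspartame and 8.96, 9.57 and 9.87 without, with no overlap. The difference was 0.57 ± 0.13 (SE; limma adjusted p = 0.0335), and 0.33 ± 0.13 against replicate 3. It rests on 1 probe set, in a locus whose genes share exons, so the transcript it reads is uncertain. Cyp4f13, of a cytochrome P450 family that hydroxylates fatty acids, rose by 0.54 but was at 0.07 against replicate 3.

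Without the fold limit, 121 bright genes (3.08%) had an adjusted p under 0.05, 106 higher and 15 lower. Tmem176b, a membrane channel protein of dendritic cells and macrophages, was among them. It had 11.40, 11.47 and 11.63 with aspartame against 10.95, 11.15 and 11.39 without, with no overlap, and both replicate 3 arrays were the lowest. The difference was 0.34 ± 0.10 (SE; limma adjusted p = 0.0399), and 0.54 ± 0.10 against replicate 3. Tgfb1, the growth factor TGF-beta 1, differed by 0.36 (limma adjusted p = 0.0335) and by 0.31 against replicate 3. Cpt1a, which commits fatty acids to mitochondrial oxidation, had 10.43 to 10.64 with aspartame against 9.92 to 10.39 without, with all 19 probe sets higher. Its difference was 0.31 (limma adjusted p = 0.0376), and 0.39 against replicate 3. Tfe3, a transcription factor of lysosome genes, and Mcoln1, a lysosomal calcium channel, differed by 0.39 and 0.33 (limma adjusted p of 0.0335 and 0.0376) and did not overlap. Against replicate 3 they were at 0.26 and 0.24. Mcoln1 was at -0.07 in its brightest probe set.

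Some bright genes were not called but lay at least 1.4-fold from the mean of the replicate 3 arrays, with no overlap of either. Upk1b, a uroplakin of mesothelium, had 9.14, 9.67 and 10.66 with aspartame and 7.97, 8.65 and 9.99 without. Its difference was 0.88 (limma adjusted p = 0.102), and 1.35 against the replicate 3 arrays, at 8.82 and 7.97. The transcription factor Zbtb20 was at 0.33 and 0.55 in the same order, the kinase gene Stk39 at 0.38 and 0.56, and the clock repressor Nr1d2 at 0.20 and 0.60. Below 0 were St3gal6, a sialyltransferase (-0.32 and -0.54), and Acot9, a mitochondrial thioesterase (-0.09 and -0.56). St3gal6 was at 11.11 on both replicate 3 arrays and at 10.27 to 10.95 with aspartame. Defb23, a beta-defensin of the epididymis, and Spint4, a protease inhibitor gene, ran from 5.47 to 12.33 and from 4.59 to 12.38 over the aspartame arrays alone. Their differences, -1.81 and -1.69 (-3.77 and -4.57 against replicate 3), were smaller than that spread.

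Gene lists were read by their bright members against all bright genes, whose median difference was 0.09 (0.089), with 72.5% above 0. At an unadjusted limma p under 0.05, 495 bright genes were higher (12.6%) and 95 lower (2.42%). Against replicate 3 the median was -0.02 (-0.025), with 42.5% above 0, 60 higher (1.53%) and 131 lower (3.34%). Where a list has a pair of medians, the second is against replicate 3.

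Macrophage genes lay above the bright median against both sets of controls. Of 13 bright members all 13 were above 0 in each, with medians of 0.27 and, against replicate 3, 0.17. None was called, and 3 were higher at an unadjusted p under 0.05, 0 of them against replicate 3. Over the members, the median level ran from 9.67 to 11.00 with aspartame and from 9.83 to 10.58 without, so the groups overlapped. Lyz1, a lysozyme whose probes may read its near copy Lyz2, was at 0.60 (limma adjusted p = 0.0739, 0.20 against replicate 3). Complement genes had medians of 0.29 and 0.16, with 10 of 11 and 7 of 11 above 0. C1qc, which starts the classical complement pathway, was at 0.46 (limma adjusted p = 0.0587, 0.25 against replicate 3) and the complement inhibitor Serping1 at 0.30 (limma adjusted p = 0.0623, 0.25 against replicate 3). The 5 MHC class II genes had medians of 0.18 and 0.17. Of the inflammatory cytokine and receptor genes, 3 were bright and above 0 in both, among them Tnfrsf1a, a receptor of tumour necrosis factor, at 0.39 (limma adjusted p = 0.0769, 0.14 against replicate 3). Genes of lipid-associated macrophages lay at 0.06 and -0.01, and the 5 of the interferon response at -0.05 and -0.11.

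**Figure D4:**
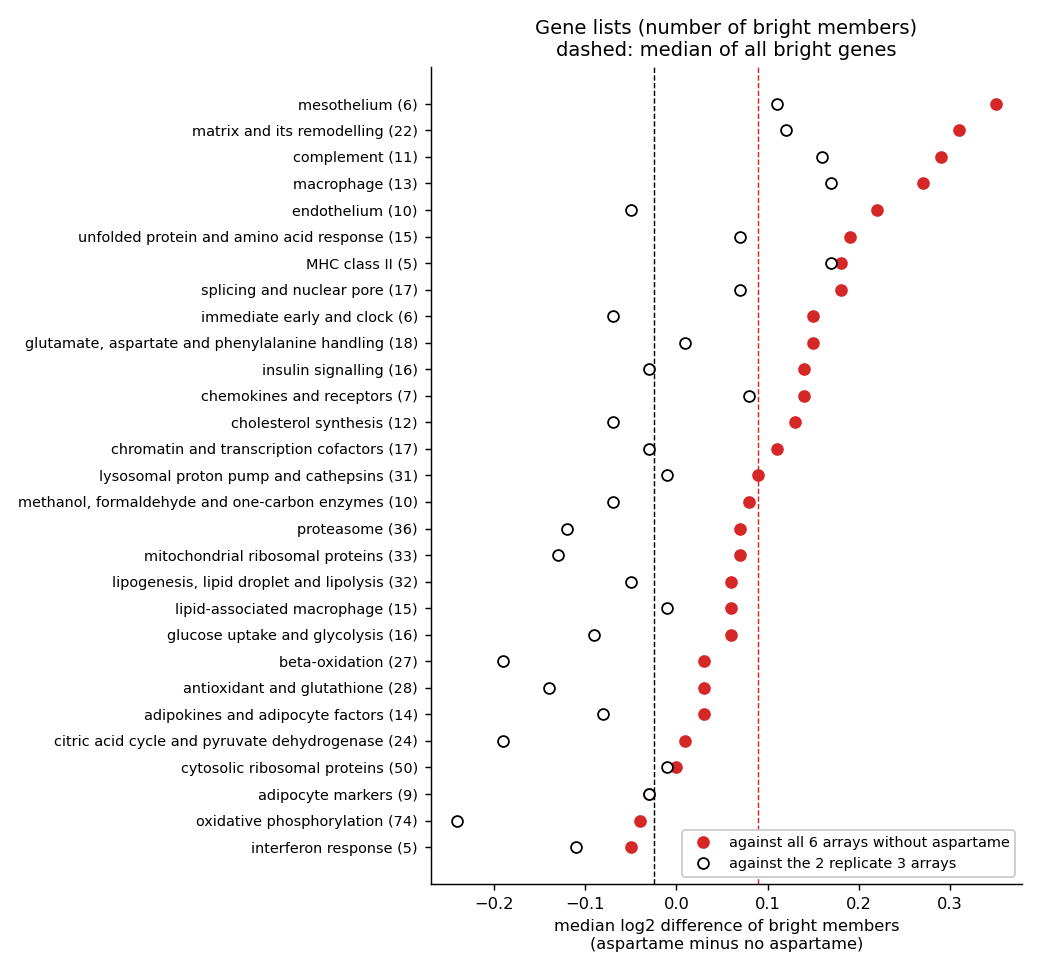
Median log2 difference over the bright members of each list with at least 5 (number in brackets; epididymis genes left out), against all 6 arrays without aspartame (red) and against the 2 replicate 3 arrays (open). Dashed lines mark the medians of all bright genes, 0.089 and -0.025. Macrophage, complement, matrix, mesothelium and MHC class II lists are among those to the right of both. Oxidative phosphorylation, citric acid cycle and beta-oxidation are among those to the left of both.

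None of the 22 T and NK cell genes measured was bright, and 4 were called lower and 1 higher, beside 13.6% of all genes called in either direction. The called share was 21.3% of genes with a mean up to 6 and 19.8% of those from 6 to 7.5. It was 6.07% of those from 7.5 to 9. Cd3e, of the T cell receptor complex, lay at 6.72 to 7.26 with aspartame and 7.20 to 7.91 without (difference -0.52), and Cd8a, of cytotoxic T cells, at 5.66 to 5.96 with aspartame and 5.87 to 6.91 without (difference -0.72; limma adjusted p = 0.0335 each). Cd3g, of the same complex as Cd3e, differed by 0.00. The B cell markers Ms4a1, Cd79b and Cd79a were at 0.55, 0.23 and 0.18, with limma adjusted p of 0.075 or higher. Dim genes of this range include the receptor genes, which were higher on the raised arrays. Taken over Cd3e, Cd3g, Cd8a, Cd4 and Nkg7, the median level came to 6.07 for TFA replicate 3 and 5.87 for MSG+TFA replicate 3. Aspartame arrays spanned 5.66 to 6.03 by this measure, while every raised array had at least 6.52, with 6.91 the highest. How far the raised arrays account for the differences of Cd3e and Cd8a was not tested.

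Matrix genes had a median of 0.31, with 19 of 22 bright members above 0 and 7 higher at an unadjusted p under 0.05. Against replicate 3 the median was 0.12, with 16 of 22 above 0 and 0 at that threshold. With the brightest probe set of each gene the median was 0.14. Timp3, which inhibits matrix proteases, had 11.12, 11.62 and 11.72 with aspartame and 10.89, 10.98 and 11.46 without, a difference of 0.44 (limma adjusted p = 0.0374) and of 0.33 against replicate 3. Its brightest probe set was at 0.04. Of the genes that the study ran by quantitative PCR, 12 were measured here and 3 were bright, namely Fn1, Thbs1 and Ehhadh. Fn1 (fibronectin) was at 0.46 ± 0.22 (SE; limma adjusted p = 0.153, 0.51 against replicate 3) and Thbs1 (thrombospondin-1) at 0.40 (limma adjusted p = 0.332, 0.02 against replicate 3). Thbs1 differed by 0.06 between ASP+TFA and TFA and by 0.73 between ASP+MSG+TFA and MSG+TFA (SE 0.41 each). Mesothelium genes had medians of 0.35 and 0.11, with Cldn15, a claudin, at 0.52 (limma adjusted p = 0.109, 0.07 against replicate 3). Their median was 0.07 between ASP+TFA and TFA and 0.52 between ASP+MSG+TFA and MSG+TFA. With the brightest probe set of each gene it was 0.08. Of the mesothelial markers, Upk3b and Msln were at 0.48 and 0.33, and Krt19, Wt1 and Lrrn4 at 0.15, 0.03 and -0.0. Endothelium genes had medians of 0.22 and -0.05, 10 of 10 and 3 of 10 above 0, so their direction turned with the choice of controls. Of the fibroblast markers, Dcn (decorin) and Dpt (dermatopontin) were at 0.03 and -0.11. The others were higher, Pdgfra at 0.45 (limma adjusted p = 0.0587) and the collagens Col1a1 and Col3a1 at 0.25 each (limma adjusted p of 0.315 and 0.323). None of the collagen genes was bright.

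Mitochondrial lists also moved with that choice. Oxidative phosphorylation, the chain that makes ATP, had a median of -0.04 over 74 bright genes, with 28 above 0, 8 lower at an unadjusted p under 0.05 and 0 higher. Against replicate 3 its median was -0.24, with 4 of 74 above 0 and 31 lower at that threshold. On TFA replicate 3 the median level of these genes was 11.35, the highest of all 12 arrays, and on MSG+TFA replicate 3 it was 11.11, against 10.84 to 11.18 with aspartame. Citric acid cycle genes lay at 0.01 and -0.19 (13 and 0 of 24 above 0), beta-oxidation genes at 0.03 and -0.19 (16 and 2 of 27) and mitochondrial ribosomal genes at 0.07 and -0.13 (24 and 5 of 33). After quantile normalization the last 3 medians were -0.05, -0.05 and -0.06. Ndufs6, of complex I, differed by -0.31 (limma adjusted p = 0.0454) and by -0.30 against replicate 3. Sucla2, of the citric acid cycle, was at -0.29 (limma adjusted p = 0.0779) and -0.28. The ribosomal genes Mrpl4 and Mrpl10, at 0.51 and 0.42, were at -0.04 and -0.03 against replicate 3. Ehhadh, of peroxisomal beta-oxidation, was at -0.07 (limma adjusted p = 0.678, -0.26 against replicate 3).

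The 9 adipocyte markers had a median of -0.03 against both sets of controls, and 0 passed an unadjusted p of 0.05. Against replicate 3, Adipoq, Lep, Pparg, Plin1, Fabp4 and Cfd were at -0.06, 0.04, -0.09, -0.01, -0.01 and -0.19, and Lpl, Lipe and Cidec at -0.08, 0.00 and -0.03. Against all 6 arrays, Adipoq differed by 0.09 (95% interval -0.13 to 0.31), Lep (leptin) by -0.03 (-0.38 to 0.32), Pparg, the master factor of fat cells, by -0.09 (-0.35 to 0.18) and Plin1 (perilipin, of the lipid droplet) by 0.20 (-0.02 to 0.43). The fatty acid binding protein Fabp4 was at -0.04, the complement factor Cfd at -0.03, and Lpl, Lipe and Cidec, of triglyceride handling, at -0.03, 0.09 and 0.07. Lipogenesis and lipid droplet genes had medians of 0.06 and, against replicate 3, -0.05, with the desaturase Scd2 at 0.22 (limma adjusted p = 0.0917, 0.12 against replicate 3). Insulin signalling genes had 0.14 and -0.03, with the kinase Gsk3b at 0.29 (limma adjusted p = 0.0618, 0.19 against replicate 3) and the mTOR activator Rheb at -0.28 (limma adjusted p = 0.0664, -0.15 against replicate 3). Foxo1, a factor restrained by insulin, was at 0.42 (limma adjusted p = 0.0884) and 0.00 against replicate 3. Glycolysis genes had 0.06 and -0.09, with Gpi1 at 0.20 (limma adjusted p = 0.103, 0.05 against replicate 3).

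Genes that handle the parts of aspartame were read from 2 lists. Of 45 measured genes of glutamate, aspartate and phenylalanine handling, 18 were bright, with medians of 0.15 and, against replicate 3, 0.01. Of these 18, 1 had an adjusted p under 0.05, beside 3.08% of all bright genes. It was Slc38a2, a carrier of neutral amino acids that cells raise when these run short. It had 9.72, 9.88 and 9.97 with aspartame and 9.12, 9.49 and 9.75 without. All 17 probe sets were higher, and the difference was 0.40 ± 0.11 (SE; limma adjusted p = 0.0368), or 0.19 against replicate 3. MSG+TFA replicates 1 and 3, both at 9.75, lay inside the aspartame range. The 10 bright genes of methanol, formaldehyde and one-carbon metabolism had medians of 0.08 and -0.07, and 0 passed an unadjusted limma p of 0.05. The unfolded protein and amino acid response lay at 0.19 and 0.07, with Herpud1 at 0.33 (limma adjusted p = 0.0737, 0.12 against replicate 3) and Atf6, a sensor of unfolded proteins, at 0.25 (limma adjusted p = 0.129, 0.02 against replicate 3).

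Cytosolic ribosomal genes had a median of 0.00, with 25 of 50 above 0, and -0.01 against replicate 3. Rps15a fell by 0.35 on the log2 scale (limma adjusted p = 0.0449, -0.06 against replicate 3), while Rpl7l1 was at 0.36 (limma adjusted p = 0.0521, 0.13 against replicate 3). Proteasome genes lay at 0.07 and -0.12, with Psmb7 at -0.25 (limma adjusted p = 0.0865, -0.30 against replicate 3) and Psmc4 at 0.25 (limma adjusted p = 0.0882, 0.07 against replicate 3). Splicing genes lay at 0.18 and 0.07, with Sf3b1, of the U2 particle, at 0.24 (limma adjusted p = 0.0495, 0.19 against replicate 3) and no overlap, and Srsf6 at 0.32 (limma adjusted p = 0.0678, 0.10 against replicate 3). Chromatin cofactors had 0.11 and -0.03, with the acetyltransferase Ep300 at 0.36 (limma adjusted p = 0.0534, 0.13 against replicate 3) and Med1 at 0.22 (limma adjusted p = 0.121, 0.04 against replicate 3). Antioxidant genes had 0.03 and -0.14 (-0.02 after quantile normalization). There Prdx5, a peroxiredoxin of mitochondria and peroxisomes, had 10.56 to 11.13 with aspartame against 11.03 to 11.61 without (difference -0.48, limma adjusted p = 0.0342, -0.25 against replicate 3). It was at -0.01 in its brightest probe set, and 5 of its 9 probe sets ran in this direction. Prdx6 was at 0.20 (limma adjusted p = 0.0656, 0.19 against replicate 3). Cholesterol synthesis genes had 0.13 and -0.07, with the sterol isomerase Ebp at 0.46 (limma adjusted p = 0.0475, 0.15 against replicate 3) and Insig2, which holds back sterol regulators, at -0.29 (limma adjusted p = 0.093, -0.40 against replicate 3). Lysosome genes had 0.09 and -0.01, immediate early and clock genes 0.15 and -0.07, and chemokine genes 0.14 and 0.08, with the chemokine Cxcl12 at 0.42 (limma adjusted p = 0.0711, 0.08 against replicate 3).

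The 2 backgrounds were then set side by side, with no array in common. The 30 called bright genes had the same direction in both, as genes chosen on the pooled difference tend to, and for 19 of them the difference was larger without MSG. Litaf differed by 0.90 between ASP+TFA and TFA and by 0.36 between ASP+MSG+TFA and MSG+TFA, Dusp6 by 0.90 and 0.40, Capg by 0.96 and 0.23, Pdpn by 0.57 and 0.40, Micos10 by -0.44 and -0.54 and Meox2 by 0.72 and 0.79. Over all 3926 bright genes, 75.8% had the same sign in both backgrounds (Pearson's r = 0.595 across genes, which are not independent replicates, and each background held 2 raised arrays among its controls). Against the replicate 3 array of each background alone the share was 65.0% (r = 0.578). The interaction of aspartame and MSG passed an adjusted p under 0.05 in limma for 0 bright genes. This 0 does not show that aspartame acted alike in both backgrounds, since small p-values were fewer than chance gives. At an unadjusted p under 0.05 there were 20, and 77 in a plain linear model, where 196.3 are expected. Capg had the only such value among the 30 (interaction -0.73, limma adjusted p = 1).

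**Figure D5:**
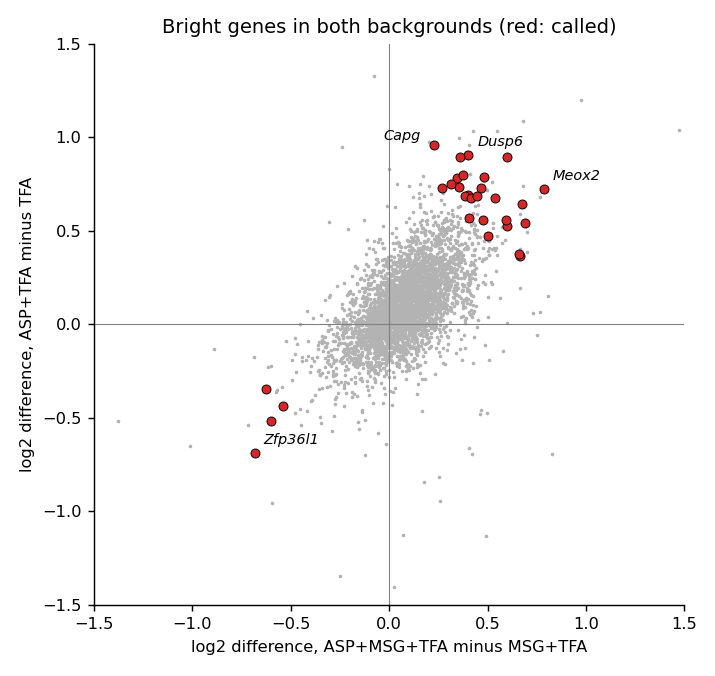
Log2 difference of each bright gene without MSG (vertical axis, ASP+TFA minus TFA) and with MSG (horizontal axis, ASP+MSG+TFA minus MSG+TFA), with the 30 called genes in red; 20 genes beyond 1.5 on either axis are not drawn. The red points lie in the upper right (26) and lower left (4), and 75.8% of all bright genes have the same sign on both axes.

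RNA of neighbouring organs varied widely over the arrays. The 10 bright epididymis genes had medians of 1.10 and, against replicate 3, 1.88, with 0 past an unadjusted limma p of 0.05, and their median level ran from 5.43 to 12.99 with aspartame and from 5.87 to 12.98 without. Crisp1 differed by 0.01 ± 2.02 (SE), while Lcn8, a lipocalin of the epididymis, differed by 2.55 ± 2.05 (SE), with medians of 12.70 with aspartame and 5.81 without. The pancreas markers were at -0.96 to -1.53 (limma adjusted p of 0.216 or higher), with TFA replicate 2 the high array. The part of these RNAs in the differences was not tested. Each group held 2 arrays low in Crisp1. Within the 8 arrays high in it and the 4 low in it, a split made after seeing the data and with 0 genes called in either, Litaf differed by 0.70 and 0.49, Dusp6 by 0.57 and 0.81, Pdpn by 0.41 and 0.65 and Zfp36l1 by -0.74 and -0.57. These genes were chosen on the same arrays pooled, so their signs here are no separate evidence. At the edge of the bright range, Ccn2 (mean 9.02), Ercc3 (9.04) and Sec24d (9.05) were just inside, and Fmod (9.00, a matrix proteoglycan), Atf4 (8.99, a factor of the amino acid response) and Phax (8.98) just outside, with called differences of 0.50, 0.65 and 0.72.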

How the data were processed

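RNA of 12 arrays (Affymetrix Mouse Gene 1.0 ST) was read from the deposited table of 241576 probe sets, in which each value is a probe set's intensity on a linear scale after the authors' normalization. Partek and GCRMA, which corrects background by probe sequence and applies quantile normalization, are named in the submitters' processing notes. Background correction was not repeated here, and 0 columns belonged to no sample. Values were turned to log2. Probe sets naming exactly 1 gene in the platform annotation (212138 probe sets) were kept, and the gene value was the median over them, for 20358 genes.

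Differences with aspartame were fitted in limma 3.58.1 (R 4.3.3) over all 12 arrays with MSG as a term and Benjamini-Hochberg adjustment over all genes. Genes were called at an adjusted p under 0.05 and at least 1.4-fold, and were bright at a mean log2 above 9. The number of arrays limits the precision, and p-values measure the spread between pools of RNA. The procedure was tested on simulated data. Members and all 41 gene lists were chosen with earlier results of these data known, as were the bright limit and the replicate 3 check.

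The genes named were bright genes with informative symbols. By the rule these were, in each direction, up to 12 that kept at least 1.4-fold with no overlap against the replicate 3 arrays, called genes before others, then members of the lists with the smallest unadjusted p (up to 2 of those allowed for each list, at an unadjusted p under 0.05), adipocyte markers and the study's quantitative PCR genes. All 30 called genes were added to these, which goes beyond the rule, and the rule's place for called genes that reversed was empty. The genes at the edge of the bright range and the lymphocyte and organ markers serve as checks.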

Additional observations from a re-analysis of the deposited data

Results flagged for a closer look

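In 10 of the 172 groups of 6 arrays behind the named genes, a single array stood far from the other 5, and chance gives such a gap in about 1 of 20 groups. Among aspartame arrays, ASP+TFA replicate 2 was the low array for 4 genes. These were Cxcl12 at 8.85 (others 9.20 to 9.38), Igfbp6 at 9.36 (9.94 to 10.28), Insig2 at 9.83 (10.18 to 10.37) and Timp3 at 11.12 (11.58 to 11.72). ASP+TFA replicate 3 was the low array for Atf6, at 9.25 (9.49 to 9.58). It was the high array for Ndufc1 at 11.53 (10.66 to 10.82) and Cox7b at 12.64 (11.96 to 12.20). Among arrays without aspartame, MSG+TFA replicate 1 was low for Insig2 at 10.09 (10.50 to 10.64) and high for Stk39 at 10.0 (8.82 to 9.22), and TFA replicate 1 was low for Scd2 at 12.38 (12.58 to 12.70).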

How the results depend on the processing

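The counts of called genes rest on adjusted p-values close to the threshold, with 0.0335 the smallest and 0.0475 the largest among the 30 bright genes. In the order all genes, bright higher and bright lower, the counts of 2759, 26 and 4 became 0, 0 and 0 with only replicate 3 controls, with raised arrays as a term, after quantile normalization, with only bright genes fitted, and within the arrays high or low in Crisp1 (the last 2 chosen after seeing the data). They became 1554, 16 and 2 with 1 mean per diet, 2, 0 and 0 in a plain linear model, and 4289, 12 and 26 with the brightest probe set, where the median difference of all genes was -0.145 in place of -0.024. At an unadjusted p under 0.05, where 196.3 are expected by chance, 590 bright genes passed in the main fit. The count was 191 with replicate 3 controls, 220 with the raised term and 494 after quantile normalization. It was 791 in the fit of bright genes and 731 in the plain model. A bright limit of 8 gave 140 higher and 23 lower, and a limit of 10 gave 0 and 2. Leaving out 1 array gave 0 to 5182 called genes, 0 to 91 bright higher and 0 to 18 bright lower. It gave 0 for 10 arrays (smallest adjusted p 0.0518 to 0.0871, with 367 to 557 bright genes at an unadjusted p under 0.05), 5182 with TFA replicate 3 left out and 4900 with MSG+TFA replicate 3 left out. With a replicate block the counts were 3536, 33 and 3, with 28 of the 30 bright genes again called, but same-numbered arrays deviated together only in part (correlations -0.549 to 0.259), so the numbers share no known pairing. Counts also stayed within 1.5 times with a variance trend and with Crisp1 as a term. The interaction of aspartame and MSG had 0 calls in each alternative run.

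The direction turned in these cases, none of them called in the alternative. With replicate 3 controls, and with raised arrays as a term, Adipoq was at -0.06, Cidec at -0.03, Lep at 0.04, Mrpl10 at -0.03, Mrpl4 at -0.04 and Plin1 at -0.01. With the brightest probe set, Acot9 was at 0.11, Alg3 at -0.16, Atf6 at -0.09, Cfd at 0.04, Cidec at -0.002, Cldn15 at -0.13, Ep300 at -0.05, Mcoln1 at -0.07, Mrpl10 at -0.03, Ndufc1 at 0.02, Pparg at 0.05, Prdx6 at -0.05, Rpl7l1 at -0.02, Srsf6 at -0.08, Stk39 at -0.07, Zbtb20 at -0.05 and Zfp36l1 at 0.29. Fabp4 was at 0.002 after quantile normalization. With 1 array left out, Acot9 ran from -0.20 to 0.04, Cfd from -0.09 to 0.01, Lep from -0.12 to 0.10 and Lpl from -0.06 to 0.02. The causes were not tested. Dim signal limits what can be read below the bright range, where most calls lie.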
